A study of Homo sapiens with 6 samples.

Results

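The genes described here encode proteins of plasminogen activation and of the tissue factor pathway. They are PLAU, PLAT, PLAUR and SERPINE2 on the plasminogen side, and F3, TFPI, TFPI2, THBD and F2RL1 on the coagulation side. These 9 genes were chosen by symbol, with their differences between the groups already known, out of 22681 genes in the deposited table. All 9 had a row, and all 9 passed the filter on low counts. Because the choice used the contrast between the groups, the differences of the 9 genes are given as a description, with standard errors and without p-values.

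RNA was sequenced from 6 cultures of TPC-1-Len, a human papillary thyroid carcinoma line (TPC-1) made resistant to the kinase inhibitor lenvatinib and kept in 10 µM of it. Of these, 3 cultures carried a short hairpin RNA against KRT15 (sh-KRT15) and 3 carried a non-targeting hairpin (sh-NC). Both groups were thus transfected, resistant and exposed to the drug, and neither untransfected nor drug-sensitive cells stood beside them. The study set out to find genes that depend on KRT15, a type I keratin, in resistant cells. A single line and 1 hairpin against KRT15 are named, and the labels do not say whether the replicates were transfected separately, and p-values therefore speak only of how these cultures varied.

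Plasminogen is turned into the broad protease plasmin by urokinase (PLAU) and tissue-type activator (PLAT). Urokinase acts largely at the cell surface, bound to its receptor PLAUR, and serpins such as SERPINB2 and SERPINE2 block the activators. Tissue factor (F3) is the membrane receptor for factor VII that starts clotting, TFPI shuts that complex down, thrombomodulin (THBD) turns thrombin into an anticoagulant, and the protease-activated receptor F2RL1 signals into the cell when proteases cleave it. Thyroid and other carcinoma cells often make several of these proteins themselves.

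Libraries held 39868231 to 41343780 counted reads in sh-KRT15 and 36286059 to 36808695 in sh-NC. KRT15, the targeted gene, stood at 25.0, 24.3 and 24.9 CPM (reads scaled to a common library size) in the sh-KRT15 libraries, against 28.7, 31.9 and 36.2 CPM in the sh-NC libraries, a log2 fold change of −0.38 ± 0.10 (SE, edgeR adjusted p = 0.00465). This was 23.4% less, and the median absolute log2 fold change over all tested genes was 0.31. Reads of mitochondrially encoded genes took 4.86 to 6.55% of the sh-KRT15 libraries and 4.99 to 5.24% of the sh-NC libraries. The thyroid factor PAX8 was at 410.4 CPM in sh-KRT15 and 375.3 CPM in sh-NC, while NKX2-1 and TSHR, which also define thyroid cells, had 0 reads over sh-KRT15 and 1 read each over sh-NC. The 9 of 10 listed thyroid epithelial markers with a row summed to 665 to 692 unscaled CPM in sh-KRT15 and 511 to 521 in sh-NC. Of 6 tested, KRT18 was called higher (214.6 CPM in sh-KRT15, 115.9 in sh-NC) and none lower, where 22.1% of all tested genes were called higher. Endothelial markers matter here because endothelium is a textbook source of THBD, TFPI and PLAT. The 9 of 10 listed markers with a row summed to 8.63 to 9.31 unscaled CPM in sh-KRT15 and 16.2 to 18.3 in sh-NC, with CLDN5 at 1 and 0 reads and EMCN at 0 and 3 reads, in that order of groups. Of 4 tested endothelial markers TIE1 and ROBO4 were called lower and none higher, where 23% of all tested genes were called lower and 22.1% higher. Fibroblast markers summed to 106 to 113 unscaled CPM in sh-KRT15 and 65.3 to 68.4 in sh-NC (10 of 10 listed with a row; COL1A2 had 0 and 13 reads). Most of that sum was FBLN1, at 98.4 CPM in sh-KRT15 and 43.3 CPM in sh-NC. Of the 5 tested fibroblast markers FBLN1 and PDGFRB were called higher and COL1A1, LUM and MFAP5 lower (log2 fold changes of −1.52, −2.77 and −2.03), at a list median of −1.52. Leukocyte markers summed to 164 to 186 unscaled CPM in sh-KRT15 and 203 to 206 in sh-NC (8 of 10 with a row; PTPRC had 0 and 43 reads), and 3 of 5 tested were called lower and none higher. LAPTM5 (109.6 and 115.8 CPM in the same order, not called) and CD68 (59.6 and 87.9 CPM) made up most of this sum. The samples were cultures of a single named line, not tissue, so these markers are given as levels in that line. What part, if any, other cell types had in the results below was not tested. In bulk RNA fewer cells of a type and less RNA per cell cannot be told apart.

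Of the 9 genes, 8 stood lower and 1, THBD, stood higher in sh-KRT15, and for each of them the 3 libraries of one hairpin lay wholly apart from the 3 of the other. All 9 passed the threshold used for the whole table, an adjusted p under 0.05. Over all 14356 tested genes, 23% passed as lower and 22.1% as higher, 45% in all, and the groups did not overlap in 54%, made up of 27.1% with sh-KRT15 lower and 26.9% with sh-KRT15 higher. The members were picked on this contrast, so nothing is read from their count. Their median log2 fold change was −1.26 and the median over all tested genes was −0.0013.

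**Figure D1:**
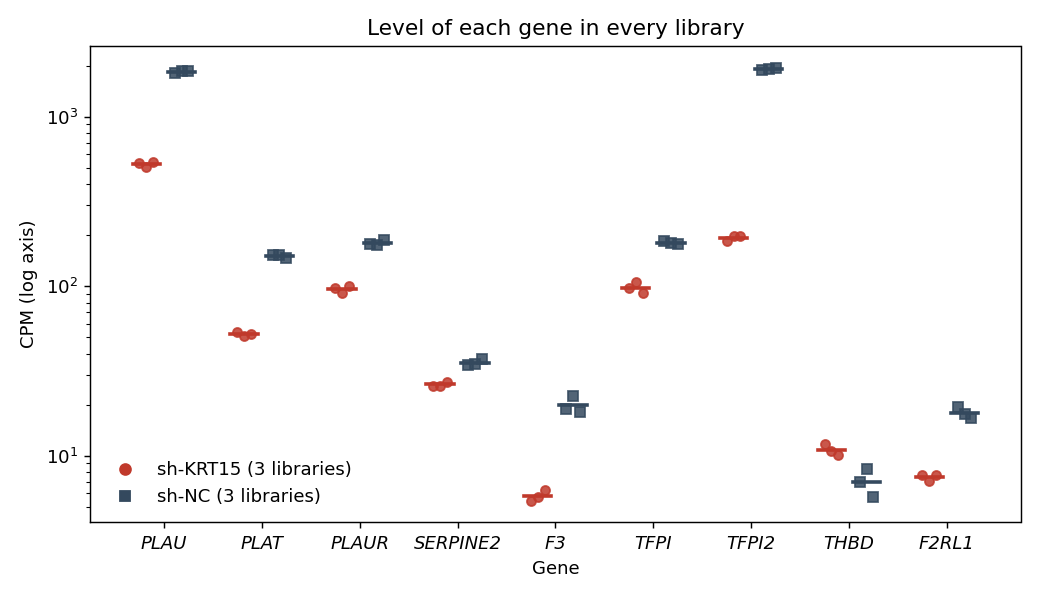
CPM (log axis) of the 9 genes in each of the 6 libraries, with sh-KRT15 as red circles, sh-NC as dark squares and a line at each group mean (n = 3). The points of the groups lie apart for every gene, with THBD the single gene whose sh-KRT15 points are the upper ones, and PLAU and TFPI2 lie far above the rest in sh-NC.

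The urokinase gene PLAU was among the most abundant transcripts of the control cells. It had 530.0, 505.7 and 541.6 CPM in the sh-KRT15 libraries, against 1806, 1852 and 1872 CPM in the sh-NC libraries. The lowest sh-NC library was above every sh-KRT15 library, and by CPM PLAU ranked 227 to 249 among tested genes in sh-KRT15 and 46 to 50 in sh-NC. The difference came to −1.81 ± 0.07 on the log2 scale (SE), or 71.5% less. PLAU lies on the plus strand of chromosome 10 (GRCh38, 73909177 to 73917497 in GENCODE release 29). On the opposite strand C10orf55 shares 916 exon bases with it. Strand use in the counting is not given in the sources used here, so reads of the shared bases cannot be assigned with certainty. C10orf55 itself had 953 reads in sh-KRT15 and 1068 in sh-NC, summed over 3 libraries each. These counts do not show how many reads of the shared bases were dropped or counted for the other gene.

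The second activator, PLAT, had 53.7, 50.5 and 51.8 CPM in sh-KRT15 and 152.6, 152.3 and 146.2 CPM in sh-NC. Its libraries were as tightly grouped as those of PLAU, and the log2 fold change of −1.53 ± 0.07 was close to that of PLAU. The ratio of PLAU to PLAT reads within a library was 10.1 ± 0.302 in sh-KRT15 and 12.3 ± 0.494 in sh-NC (SD, n = 3), so PLAU stood somewhat further down than PLAT.

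PLAUR, the receptor that holds urokinase at the cell surface, was reduced less than its ligand. It had 97.1, 90.5 and 100.1 CPM in sh-KRT15, against 176.8, 174.3 and 187.0 CPM in sh-NC, a log2 fold change of −0.90 ± 0.07. Each PLAUR read was accompanied by 5.46, 5.59 and 5.41 PLAU reads in sh-KRT15 and by 10.2, 10.6 and 10.0 in sh-NC. This ratio does not depend on library scaling, and its groups lay apart.

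SERPINE2, also called protease nexin-1, inhibits thrombin, urokinase and plasmin, and it showed the smallest difference of the 9. It had 25.9, 25.7 and 27.3 CPM in sh-KRT15 and 34.1, 34.7 and 36.9 CPM in sh-NC. The log2 fold change was −0.42 ± 0.09, a reduction of 25.3%. After each library was corrected for gene GC content and length the log2 fold change was −0.28. The ratio of PLAU to SERPINE2 reads was 20.0 ± 0.414 in sh-KRT15 and 52.4 ± 1.49 in sh-NC (SD, n = 3).

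Tissue factor, encoded by F3, was at a low level in both groups. Its libraries had 5.42, 5.66 and 6.28 CPM in sh-KRT15 and 18.9, 22.4 and 18.1 CPM in sh-NC, from 222 to 254 reads in sh-KRT15 and 643 to 798 reads in sh-NC. Every sh-KRT15 library lay far below every sh-NC library, and sh-NC replicate 2 stood above its fellows. The log2 fold change was −1.78 ± 0.13, nearly the value of PLAU from a level far below it. F3 lies on the minus strand of chromosome 1 (94529225 to 94541800).

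TFPI, the Kunitz-type inhibitor of the tissue factor complex, had 97.3, 105.3 and 90.9 CPM in sh-KRT15 and 183.4, 180.0 and 176.8 CPM in sh-NC. The groups lay apart, and sh-KRT15 was the more scattered one, with a coefficient of variation of 7.37% against 1.83% in sh-NC. The log2 fold change was −0.88 ± 0.07, so F3 and TFPI were both lower. Reads of F3 per read of TFPI were 0.0595 ± 0.00834 in sh-KRT15 and 0.110 ± 0.0124 in sh-NC (SD, n = 3), so this ratio was lower in sh-KRT15. Reads of F3 per read of TFPI2, the other inhibitor gene, went the other way, at 0.0300 ± 0.00173 in sh-KRT15 and 0.0104 ± 0.00127 in sh-NC.

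TFPI2, a matrix-bound relative of TFPI that inhibits plasmin and trypsin more than the tissue factor complex, showed the widest gap of the 9 genes. It had 185.6, 196.9 and 196.6 CPM in sh-KRT15, against 1875, 1898 and 1948 CPM in sh-NC. No library came near those of the other group. The level was 9.88-fold lower in sh-KRT15 (log2 fold change −3.30 ± 0.07), and TFPI2 ranked 86 from the most negative fold change among the 14356 tested genes. TFPI2 lies on the minus strand of chromosome 7 (93885396 to 93890991). Its exons share 44 bases with GNGT1 on the opposite strand, which had 0 reads in sh-KRT15 and 4 in sh-NC. For each TFPI read there were 1.98 ± 0.159 TFPI2 reads in sh-KRT15 and 10.6 ± 0.398 in sh-NC (SD, n = 3).

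THBD, thrombomodulin, was the only one of the 9 that stood higher. It had 11.8, 10.6 and 10.0 CPM in sh-KRT15 and 6.96, 8.34 and 5.67 CPM in sh-NC, from 405 to 481 reads in sh-KRT15 and 201 to 297 reads in sh-NC. The groups lay apart, with sh-NC replicate 2 nearest to the sh-KRT15 libraries, and the coefficient of variation of sh-NC was 19.1%, above that of 85.7% of the genes within 2-fold of its level. The log2 fold change was 0.63 ± 0.15 and lay between 0.50 without sh-NC replicate 3 and 0.77 without sh-NC replicate 2. Reads of F3 per read of THBD were 0.46, 0.53 and 0.63 in sh-KRT15 and 2.72, 2.69 and 3.20 in sh-NC, a 5.31-fold lower ratio in sh-KRT15.

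F2RL1, which encodes the receptor PAR-2 that trypsin-like proteases and the tissue factor complex activate, had 7.64, 7.08 and 7.67 CPM in sh-KRT15 and 19.3, 17.6 and 16.7 CPM in sh-NC. The sh-KRT15 libraries sat within counting error of each other, with a coefficient of variation of 4.45% where counting alone gives 5.69%. The log2 fold change was −1.26 ± 0.12.

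**Figure D2:**
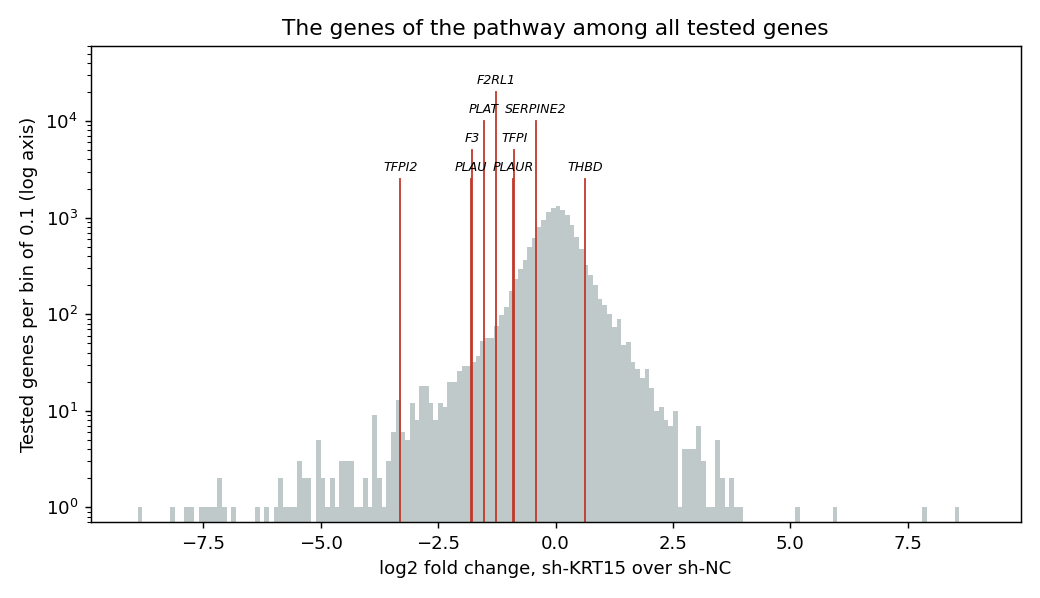
Histogram of the log2 fold changes (sh-KRT15 over sh-NC) of all 14356 tested genes, with the number of genes on a log axis and a red line at the value of each of the 9 genes. TFPI2 lies in the far left tail at −3.30, PLAU, F3, PLAT and F2RL1 lie beyond the 5th percentile of −1.11, and THBD is on the right at 0.63.

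Levels of different genes were compared per kilobase of merged exons. In sh-KRT15 cells PLAU came first at 178 ± 6.23 CPM per kilobase (SD, n = 3), followed by TFPI2 at 72.0 ± 2.41 and PLAUR at 21.5 ± 1.10. In sh-NC cells TFPI2 came first at 711 ± 13.8 CPM per kilobase, followed by PLAU at 625 ± 11.5 and PLAUR at 40.2 ± 1.50. The leading pair thus stood in reverse order, with the ranges of PLAU and TFPI2 apart in both groups. TFPI (8.35 ± 0.615) and PLAT (7.86 ± 0.244) overlapped in sh-KRT15, where the longest annotated transcript as the length put PLAT above TFPI. In sh-NC, PLAT (22.7 ± 0.549) was above TFPI (15.4 ± 0.280).

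At the low end, F3 was the sixth of the 9 in sh-NC at 6.89 ± 0.789 CPM per kilobase, not separated from F2RL1 at 6.04 ± 0.459, and the last in sh-KRT15 at 2.01 ± 0.154. THBD was the last in sh-NC at 1.70 ± 0.325. In sh-KRT15 it overlapped F2RL1, at 2.63 ± 0.214 and 2.52 ± 0.113 CPM per kilobase. SERPINE2 lay just above that pair in sh-KRT15 (2.96 ± 0.102) and between F2RL1 and THBD in sh-NC (3.96 ± 0.171).

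**Figure D3:**
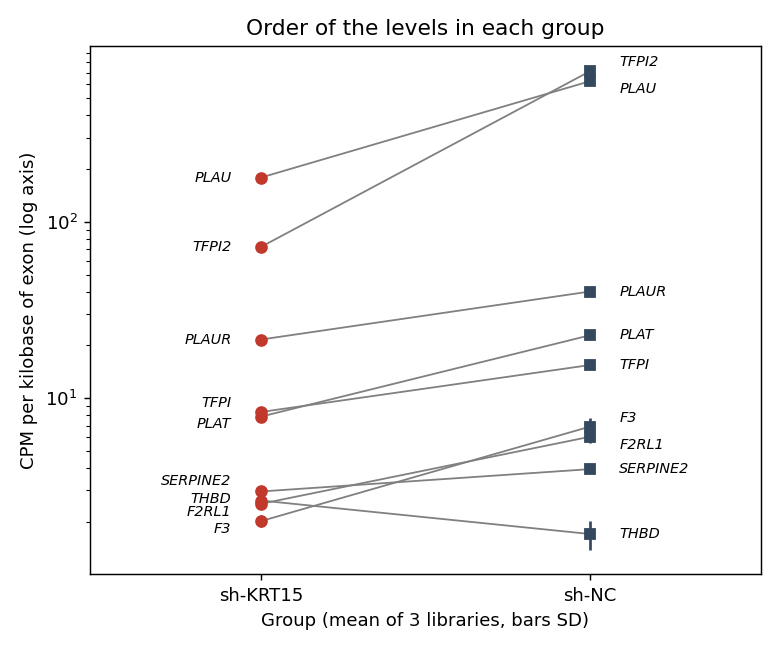
Mean level per kilobase of exon (log axis) of the 9 genes in sh-KRT15 on the left and sh-NC on the right, with SD bars over 3 libraries and a grey line joining each gene. The lines of PLAU and TFPI2 cross, the line of THBD is the only one that is higher on the left, and F3 is the lowest on the left.

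The 9 genes together held 0.103 to 0.104% of the counted reads in sh-KRT15 and 0.420 to 0.430% in sh-NC. PLAU and TFPI2 made up 70.4 to 71.5% of these reads in sh-KRT15 and 86.1 to 86.7% in sh-NC. Ratios within a library of PLAU to other genes of the 9 did not all differ in the same direction. PLAU reads per TFPI2 read were 2.73 ± 0.146 in sh-KRT15 and 0.966 ± 0.00799 in sh-NC (SD, n = 3), so this ratio was higher in sh-KRT15. Against SERPINE2 and against PLAUR the ratio of PLAU was lower, as given above.

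**Figure D4:**
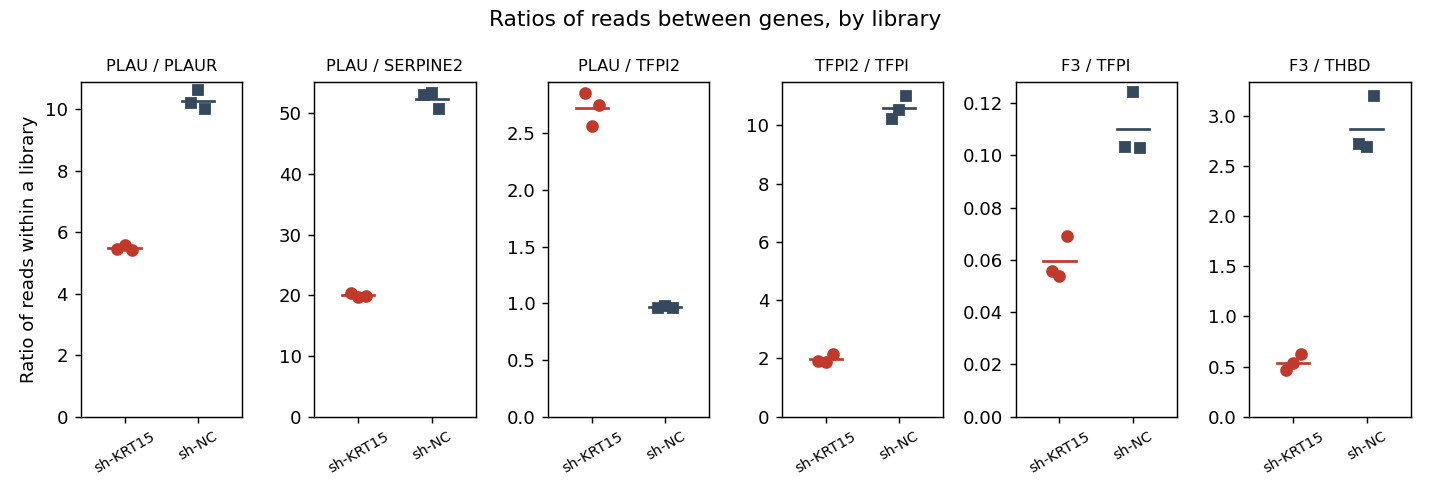
Ratio of the reads of paired genes within each library (linear axes from 0), with sh-KRT15 as red circles, sh-NC as dark squares and a line at each mean (n = 3). PLAU over TFPI2 is higher in sh-KRT15 (2.73, against 0.966 in sh-NC), and each of the other ratios shown is lower.

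Promoter sequence was looked at as a description, because the genes were picked on this contrast. Whether any motif has a part in the differences was not tested. RefSeq promoter windows (GRCh38.p14, 250 bases before to 50 after the start) were matched for 7 of the 9 genes, not for PLAT and THBD. The windows of PLAU (from chr10:73910360, plus strand) and SERPINE2 (from chr2:224031479, minus strand) lay at inner starts. Their RefSeq genes begin further upstream, at 73908832 and 224039286, and the bases before those outermost starts were not searched. The AP-1 motif TGANTCA, on either strand, occurred in 3 of these 7, namely F3, TFPI2 and PLAUR, and in 7.76% of 27305 promoter windows and 5.15% of the 11301 windows of tested genes. The NF-kB consensus, searched on both strands, occurred in TFPI2 alone of the 7, and in 6.59% of the windows of tested genes. The SP1 core GGGCGG occurred in 4 of the 7, where 68.6% of the windows of tested genes hold it. The EGR1 motif GCGNGGGCG, which can overlap the SP1 core, occurred in 3, where 15.5% do. All motifs were searched on both strands. The TEAD motif GGAATG was found in F2RL1 (11.2% of the windows of tested genes), as CATTCC on the strand of the gene. The TATA motif TATAAA was found in F3 (5.99%), as TTTATA on the strand of the gene. These matches describe letters in a window and do not show binding.

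The 3 windows with an AP-1 match are shown 5′ to 3′ on the strand of the gene, for the 250 bases before the start, with AP-1 and NF-kB matches in capitals. F3 is chr1:94541760-94542009 (minus strand), with AP-1 matches that begin 223 and 210 bases before the start. TFPI2 is chr7:93890754-93891003 (minus strand), with an NF-kB match that begins 152 and an AP-1 match that begins 87 bases before the start. PLAUR is chr19:43670170-43670419 (minus strand), with an AP-1 match that begins 186 bases before the start.
F3: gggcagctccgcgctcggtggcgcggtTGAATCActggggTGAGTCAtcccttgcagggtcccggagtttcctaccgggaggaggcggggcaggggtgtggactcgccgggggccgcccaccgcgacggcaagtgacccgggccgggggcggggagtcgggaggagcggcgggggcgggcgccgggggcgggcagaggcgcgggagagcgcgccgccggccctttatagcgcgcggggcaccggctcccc
TFPI2: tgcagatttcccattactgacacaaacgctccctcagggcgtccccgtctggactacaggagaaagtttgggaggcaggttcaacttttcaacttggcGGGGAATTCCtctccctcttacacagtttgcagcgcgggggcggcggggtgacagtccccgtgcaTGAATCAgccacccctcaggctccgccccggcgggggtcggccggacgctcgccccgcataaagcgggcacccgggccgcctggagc
PLAUR: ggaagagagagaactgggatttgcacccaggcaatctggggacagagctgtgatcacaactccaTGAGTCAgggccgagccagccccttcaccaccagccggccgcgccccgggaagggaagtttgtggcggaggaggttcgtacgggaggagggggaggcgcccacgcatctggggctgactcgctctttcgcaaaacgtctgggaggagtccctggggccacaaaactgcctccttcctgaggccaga

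The F3 window stood out by base composition, with 78.0% G and C, and held both AP-1 matches near its upstream end. F3 and TFPI2, which both hold AP-1, SP1 and EGR1 matches, had log2 fold changes of −1.78 and −3.30. PLAUR, with AP-1 and EGR1 matches, was at −0.90. The windows used for PLAU and TFPI, whose log2 fold changes were −1.81 and −0.88, held none of the motifs searched. For PLAU this covers only the inner start, and the TFPI window lay inside the longer GENCODE gene. The absence of a motif therefore does not extend to the outermost promoters of PLAU and TFPI. The same limit holds for windows with matches. The PLAUR window lay inside its GENCODE gene, whose upstream end is at 43670547. The AP-1 and NF-kB matches of TFPI2 lay inside its GENCODE gene, whose upstream end is at 93890991.

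The messages were also searched for TATTTAT, a heptamer of AU-rich elements, which mark short-lived mRNAs such as those of many cytokines. The search was added after the values were known. The heptamer occurred in the 3′ UTR of 8 of the 9 genes, all but SERPINE2, and in 35.8% of 12703 tested genes with an annotated 3′ UTR. THBD, the gene that stood higher, held the most copies, 5 in 2147 bases, TFPI held 3 in 2678, and PLAU (934 bases), PLAT (763), F3 (1238) and TFPI2 (1427) held 2 each. PLAUR held 1 in 313 bases and F2RL1 1 in 1517. The median 3′ UTR length was 1330 bases over the tested genes and 1238 in the 9, and presence of the heptamer says nothing of decay in these cells.

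For each member, the genes with the most similar profile were taken as those with the smallest Euclidean distance between log2 CPM values centred on the gene's mean, over 6 libraries and 9336 genes averaging 10 CPM or more. With 2 groups, such a distance mostly reflects a like fold change. TFPI2 lay nearest to the cytokine genes IL11 (0.180), CXCL8 (0.192) and CCL3L3 (0.243). PLAU lay nearest to AMPD3 (0.148), APCDD1L (0.164) and CXCL1 (0.209), and F3 to APCDD1L (0.196), ABCC9 (0.253) and NR5A2 (0.260). PLAT lay nearest to PLPP3 (0.0741), SOD2 (0.128) and FSTL1 (0.139). PLAUR lay nearest to PPP1R12C (0.0591), LARP6 (0.0803) and DUSP1 (0.0817), and SERPINE2 to MAGED2 (0.0383), SERPINH1 (0.0488) and ILK (0.0493). TFPI lay nearest to H2BC5 (0.0859), PACC1 (0.0865) and PGM3 (0.0884), F2RL1 to IRAK2 (0.127), COL5A1 (0.132) and ARRDC3 (0.136), and THBD to RUNX2 (0.163), PLSCR4 (0.179) and RBM47 (0.194). Among the members, PLAU and F3 were the closest pair (0.269), followed by PLAUR and TFPI (0.277), and TFPI2 and THBD were the farthest apart (4.86).

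Other genes of the plasminogen system did not move one way. Of 20 listed, 16 had a row and 11 were tested, of which 4 rose and 4 fell, at a median log2 fold change of 0.10, and 45% of all tested genes passed the same test. Among the falls, SERPINB2, a serpin that inhibits urokinase, had 0.29, 0.33 and 0.12 CPM in sh-KRT15 and 17.8, 16.6 and 17.8 CPM in sh-NC (log2 fold change −6.11 ± 0.22, edgeR adjusted p = 7.57e-13). Beside it, the log2 fold changes of the activators were −1.81 for PLAU and −1.53 for PLAT. MRC2, an endocytic receptor that binds urokinase with its receptor, fell by 0.34 ± 0.08 (adjusted p = 0.00168). The plasminogen receptor gene PLGRKT fell by 0.46 ± 0.10 (adjusted p = 0.000908), a call lost after correction for GC content and length (−0.14, adjusted p = 0.147).

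Other surface proteins that bind plasminogen, unlike PLGRKT, rose. ENO1, alpha-enolase, had 3202, 3141 and 3381 CPM in sh-KRT15 and 1777, 1875 and 1978 CPM in sh-NC (0.79 ± 0.07, adjusted p = 1.09e-07). S100A10 (0.29 ± 0.08, adjusted p = 0.00759) and ANXA2 (0.23 ± 0.07, adjusted p = 0.0141), which form the annexin A2 tetramer, rose slightly, and both calls were lost without sh-NC replicate 2 (adjusted p = 0.0516 and 0.0896). THBS1, thrombospondin-1, rose by 0.78 ± 0.11 on the log2 scale. LRP1, which clears urokinase bound to its inhibitor and receptor, was at 249.2 ± 56.7 CPM in sh-KRT15 and 292.4 ± 55.4 CPM in sh-NC (adjusted p = 0.364). PLG, the substrate itself, had no row.

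Most clotting factor genes had too few reads to test. Of 27 listed coagulation and anticoagulant genes, 21 had a row and 10 were tested, of which 2 rose and 3 fell, 50% called where 45% of all tested genes were. F7, the partner of tissue factor, had 0 reads over the sh-KRT15 libraries and 4 over the sh-NC libraries, and F10 had 19 and 5. SERPIND1, heparin cofactor II, fell to 1.06 ± 0.506 CPM in sh-KRT15, against 4.30 ± 0.446 CPM in sh-NC (−2.03 ± 0.31, adjusted p = 5.15e-05). The crosslinking enzyme TGM2 fell by 0.36 ± 0.07 (adjusted p = 0.000824). PROS1, protein S, had 13.6 ± 3.12 CPM in sh-KRT15 and 18.6 ± 1.05 CPM in sh-NC (−0.45 ± 0.14, adjusted p = 0.0170), and its call was lost under 4 of 17 other settings, without sh-KRT15 replicate 3 among them (adjusted p = 0.0824). The vitamin K cycle enzymes GGCX (0.36 ± 0.08, adjusted p = 0.0020) and VKORC1 (0.29 ± 0.10, adjusted p = 0.0247) rose. The call of VKORC1 was lost without sh-NC replicate 1 or 2 or sh-KRT15 replicate 1 or 3 (adjusted p = 0.0540 to 0.128). PROCR, the protein C receptor that works beside thrombomodulin, was at 52.5 ± 0.665 CPM in sh-KRT15 and 49.8 ± 3.29 CPM in sh-NC (adjusted p = 0.474).

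The other protease-activated receptor genes did not pass the test. F2R, the thrombin receptor, was at 10.3 ± 1.21 CPM in sh-KRT15 and 10.7 ± 1.07 CPM in sh-NC (−0.05 ± 0.13, adjusted p = 0.794), and F2RL2 was at 2.25 ± 0.320 and 2.74 ± 0.826 CPM in the same order (−0.29 ± 0.26, adjusted p = 0.400). F2RL3 had no row. Of the 12 tested genes on the list of receptors and couplers, 5 rose and 2 fell, at a median of −0.02. That is 58.3% called, beside 45% of all tested genes. The arrestins ARRB1 (0.87 ± 0.09, adjusted p = 4.94e-07) and ARRB2 (0.64 ± 0.11, adjusted p = 0.000189), which take up activated receptors, were among the rises, as were RHOA (0.27 ± 0.07, adjusted p = 0.00324), GNA11 (0.28 ± 0.07, adjusted p = 0.00369) and PLCB3 (0.27 ± 0.09, adjusted p = 0.0160). GNA11 and PLCB3 were no longer called after correction for GC content and length (adjusted p = 0.105 and 0.175), and PLCB3 was also lost without sh-NC replicate 2 or sh-KRT15 replicate 1 or 3 (adjusted p = 0.0540 to 0.0722). The receptor kinase GRK5 fell by 1.22 ± 0.15 (adjusted p = 5.14e-06). GNA13, named after its values were seen, was the other fall (−0.24 ± 0.09, adjusted p = 0.0446), and its groups overlapped.

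Partners and relatives of the urokinase receptor included both rises and falls: of 15 tested, 4 rose and 8 fell, at a median of −0.32, where 45% of all tested genes were called. The integrin chains ITGA5 (380.7 ± 31.4 CPM in sh-KRT15 and 695.1 ± 14.5 CPM in sh-NC, −0.87 ± 0.07, adjusted p = 4.37e-08) and ITGAV (231.0 ± 21.3 and 416.3 ± 73.1 CPM in the same order, −0.85 ± 0.11, adjusted p = 2.11e-05) fell. SRPX2, a secreted PLAUR ligand, fell by 0.89 ± 0.20 (adjusted p = 0.00143). CD59, which shares the three-finger fold of PLAUR, fell by 0.49 ± 0.07 (adjusted p = 2.07e-05), LYPD1 of the same fold fell by 1.33 ± 0.26 (adjusted p = 0.000450) and LYPD6 rose by 1.28 ± 0.27 (adjusted p = 0.000914), both at low levels. ITGA3, ITGB3 and EGFR, named after their values were seen, rose by 0.28, 0.27 and 0.28.

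Membrane serine proteases that can activate urokinase or PAR-2 had few reads. ST14, matriptase, was at 0.69 ± 0.0212 CPM in sh-KRT15 and 0.61 ± 0.308 CPM in sh-NC (adjusted p = 0.785). Its inhibitor genes SPINT1 (0.51 ± 0.0801 and 0.61 ± 0.188 CPM in the same order, adjusted p = 0.719) and SPINT2 (2.87 ± 1.29 and 3.61 ± 0.260 CPM, adjusted p = 0.336) did not pass, though SPINT2 was called lower without sh-KRT15 replicate 1 (−0.75, adjusted p = 0.0297). Of 11 tested genes on this list 1 rose and 3 fell, 36.4% called, beside 45% of all tested genes. The rise was in SLPI, the secretory leukocyte protease inhibitor (0.31 ± 0.08, adjusted p = 0.00386). The falls were in PI3, which encodes elafin (−0.69 ± 0.10, adjusted p = 3.30e-05), APP, whose longer forms hold a Kunitz domain (−0.50 ± 0.07, adjusted p = 8.17e-06), and PRSS23 (−0.33 ± 0.06, adjusted p = 0.000429).

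**Figure D5:**
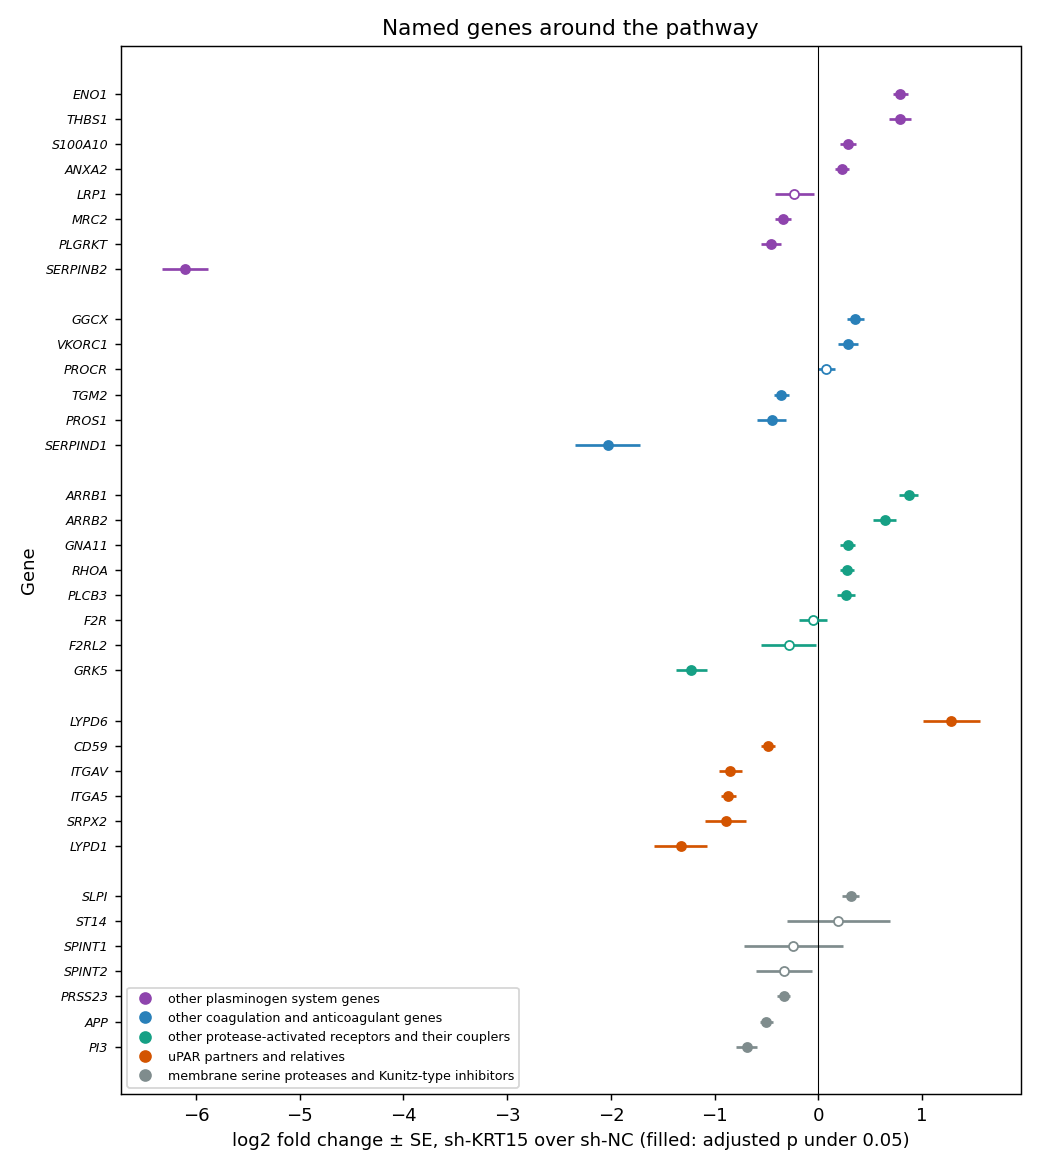
Log2 fold change with SE (sh-KRT15 over sh-NC) of the named genes of 5 lists around the pathway, with filled points for an adjusted p under 0.05 in the edgeR quasi-likelihood test. SERPINB2 (−6.11) lies far to the left, and ENO1, THBS1, ARRB1 and LYPD6 are among the points on the right.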

How the data were processed

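The authors deposited raw read counts, 1 whole number per gene and library. GRCh38 is the build named in the submitters' processing notes. No aligner, counter, annotation or strand setting is given in the sources used here. TRIzol RNA was made into Illumina mRNA libraries, per the labels' protocols. Libraries were grouped by title. Chi-square per degree of freedom between libraries was 6.18 to 31.1 within groups, so all 6 counted as separate samples. Counts were tested with edgeR 4.0.16 (R 4.3.3): quasi-likelihood, robust, TMM, filterByExpr (minimum count 10, total 15), group as the only term, Benjamini-Hochberg adjustment over all 14356 genes, called under 0.05. The fit was first tested on simulated counts. It recovered 76% of 100 genes changed 2-fold and 74% of 100 genes changed by a smaller fold, and 13 unchanged genes were called. Spreads and counting errors cover these cultures only, and counts carry no molecular identifiers.

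The 9 genes, the 5 other gene lists and the marker lists were chosen with earlier results of these data known. The text names the 9 genes, KRT15, up to 6 called genes with the smallest p per list, a set of central genes fixed by function, and the 3 nearest profiles per member; a gene that this rule took is not reported here. Lengths, GC content and 3′ UTRs came from GENCODE release 29, promoters from RefSeq. The other settings were RLE, upper-quartile and total-count scaling, DESeq2 1.42.0, limma-voom (limma 3.58.1), other filters, the replicate block, GC content and length trend removal (mgcv 1.9.3, with and without the block), protein-coding genes only and leaving out each library.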

Additional observations from a re-analysis of the deposited data

How the results depend on the processing

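All 9 genes kept their direction under the 17 other settings. Log2 fold changes ranged from −1.87 to −1.75 for PLAU, −1.55 to −1.47 for PLAT, −1.03 to −0.84 for PLAUR, −0.45 to −0.28 for SERPINE2, −1.84 to −1.63 for F3, −0.93 to −0.77 for TFPI, −3.32 to −3.02 for TFPI2, 0.50 to 0.77 for THBD and −1.31 to −1.14 for F2RL1. KRT15 ranged from −0.54 to −0.30 and stayed called (−0.46 to −0.30 with 1 library left out). Leaving out each library gave 2547 to 3295 genes higher and 2647 to 3452 lower over the whole table. The number higher was 1 to 2 for membrane serine proteases, 1 to 2 for coagulation genes and 2 to 4 for plasminogen system genes (lowest without sh-NC replicate 2), and the number lower was 1 to 2 for protease-activated receptors and couplers. Total-count scaling gave 2 higher among membrane serine proteases and 1 lower among receptors and couplers, limma-voom gave 1 lower among receptors and couplers, and no filter on low counts gave 5 lower among coagulation genes. The cause of these shifts was not tested, apart from the larger number of genes tested without a filter. Among the values of named genes under other settings, 573 kept their side of the threshold, 19 lost it and 1 gained it, and none reversed. Whether the replicate numbers pair the samples is not settled by these data. The correlation of same-numbered deviations was 0.173, −0.0092 and 0.157. The sh-KRT15 replicates 1 and 3 correlated best with the sh-NC library of their own number. Replicate 2 did not, at 0.0506 with sh-NC replicate 1. With the replicate block 3305 genes were higher and 3428 lower, and PLAU was at −1.81. At this depth F3, THBD and F2RL1, with 201 to 798 reads a library, carry a counting error of 3.76 to 6.46%, and TFPI2 and PLAU at most 1.12%.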
